A study of Rattus norvegicus with 9 samples.

Results

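The 4 opioid receptor genes and the 4 genes of the opioid peptide precursors were examined in rat dorsal root ganglia (DRGs), where the sensory neurons of the hind limb have their somata. The members were picked by gene symbol as the known opioid route of electroacupuncture analgesia, and all 8 were found among the 20413 genes of the expression table. The receptor genes were Oprm1 (gene ID 25601), Oprd1 (24613), Oprk1 (29335) and Oprl1 (29256), and the precursor genes were Penk (29237), Pdyn (29190), Pomc (24664) and Pnoc (25516).

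Opioid receptors are inhibitory G protein-coupled receptors. When a peptide binds, they lower cyclic AMP, close calcium channels and open potassium channels, and on sensory neurons this reduces transmitter release and firing. The mu, delta, kappa and nociceptin receptors are encoded by Oprm1, Oprd1, Oprk1 and Oprl1, and their peptides are cut from larger precursors: enkephalins from Penk, dynorphins from Pdyn, β-endorphin from Pomc and nociceptin from Pnoc.

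RNA-Seq had been carried out on 9 libraries of ipsilateral L4–6 DRGs from male Sprague Dawley rats aged 8 to 10 weeks, collected on day 10, with 3 libraries in each of 3 groups. The chronic post-ischemia pain (CPIP) group had undergone ischemia and reperfusion of the hind paw with a tight O-ring under anesthesia, and Sham rats, also anesthetized, wore an open ring that caused no ischemia. The CPIP+EA group had CPIP and electroacupuncture (EA) at 100 Hz through needles at the Zusanli and Kunlun acupoints of both hind limbs, given daily for 10 days. No group received EA without CPIP or needles without current, so CPIP+EA libraries differ from Sham libraries in both the injury and the treatment.

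Values are FPKM (sequenced fragments of a gene per kilobase of its length, relative to the size of the library). Library sums lay between 445647 and 482940 FPKM, and log2 values of any pair of libraries correlated across genes with a Pearson r between 0.977 and 0.990. The read counts behind single FPKM values are unknown, and the 3 libraries per group limit the precision. Sensory neurons were present by their markers, with summed FPKM of 12 genes between 3412 and 4243, of which Prph and Nefh made up the most. The log2 differences of 10 of the 12 were negative in both comparisons with Sham, with medians of -0.10 for CPIP and -0.13 for CPIP+EA. In CPIP, 4 of them (Tac1, Scn10a, Trpv1 and Pvalb) were lower than Sham without overlap and Prph was higher. Of all genes, 15.9% did not overlap between these groups. Scn10a, a sodium channel gene of nociceptors, was at 71.52, 70.28 and 62.32 FPKM in Sham, with 56.22, 49.36 and 32.81 in CPIP+EA, a difference of -0.59 (limma adjusted p = 0.173). Markers of central neurons and glia summed to at most 1.67 FPKM over 6 genes in any library, with Slc32a1 listed at 0 in 7 libraries. CPIP+EA replicate 3 stood apart in its markers of other cells. Its leukocyte markers summed to 581 FPKM, against 58.8 to 245 in the other libraries. S100a8 and S100a9 made up most of that sum, at 238 and 272 FPKM. Ptprc, Cd68 and Aif1 were also highest in this library, while Cd3e was at 0. Its erythroid markers summed to 4991 FPKM, against 561 to 3292, and its sensory neuron markers were the lowest of the 9. Values without this library are given for differences of Pdyn, Penk, Oprm1, Oprd1, Pomc and Pnoc. The 4 markers of satellite glia did not move together. Apoe, which made up most of their sum, was at 3420 to 3525 FPKM in Sham, 3580 to 3935 in CPIP and 3797 to 4006 in CPIP+EA. Of the others, Fabp7 differed by -0.45 and Kcnj10 by -0.24 (log2) between CPIP and Sham, and Glul by 0.02. Fabp7 ranged from 25.64 to 55.02 FPKM in Sham and overlapped with CPIP, while Kcnj10 did not overlap. Between CPIP+EA and CPIP, Fabp7 differed by 0.71 without overlap, at 25.12 to 32.13 FPKM in CPIP and 41.13 to 51.93 in CPIP+EA, and Glul by -0.21 (limma adjusted p = 0.996 for both). The 4 Schwann cell markers summed to 6023 to 9127 FPKM in Sham, 5643 to 10072 in CPIP and 3978 to 7796 in CPIP+EA, and the fitted differences of all 4 between CPIP+EA and CPIP were negative (median -0.50, log2). Fibroblast and meningeal markers were at 775 to 1042 FPKM over 5 genes in Sham, 657 to 868 in CPIP and 430 to 887 in CPIP+EA. The median log2 difference of the 5 against Sham was -0.22 for CPIP and -0.53 for CPIP+EA, with 4 negative and 1 positive in each. At an unadjusted limma p under 0.05, 3 were lower in CPIP+EA than in Sham, beside 12.2% of all genes in either direction. Lum was at 105 to 119 FPKM in Sham, 80.6 to 83.4 in CPIP and 56.2 to 91.3 in CPIP+EA. Between CPIP+EA and CPIP all 5 were negative (median -0.27). The part of any of these markers in the results for the opioid genes was not tested. In bulk tissue, fewer cells of a type and less RNA per cell cannot be told apart.

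Promoter sequences are shown for 3 of the members. All 8 members matched the RefSeq gene list of the GRCr8 assembly by gene ID and symbol. The promoter sequences used here, from RefSeq on GRCr8, held 5 windows for 4 of them. Windows of Oprk1, Oprl1, Penk and Pnoc were not used here. Each window is the 250 bases before an annotated start, written 5′ to 3′ on the strand of the gene. Capitals mark matches on either strand to any of 6 motifs. The TATA box was searched as TATAAA and the CCAAT box by its own letters. The GC box was searched as GGGCGG and the AP-1 site as TGANTCA. The cAMP response element was searched as TGACGTCA and its half-site, which lies within it, as TGACG. Pdyn and Oprd1 are shown because their CPIP and Sham libraries did not overlap, and Pomc as a precursor gene whose groups overlapped.
Pdyn, chr3:137366504-137366753, minus strand: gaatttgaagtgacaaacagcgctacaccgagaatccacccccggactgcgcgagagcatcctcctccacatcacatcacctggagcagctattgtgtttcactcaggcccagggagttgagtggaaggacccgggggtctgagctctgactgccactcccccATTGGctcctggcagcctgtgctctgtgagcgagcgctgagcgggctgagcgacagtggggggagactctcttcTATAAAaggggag
Pomc, chr6:32659103-32659352, plus strand: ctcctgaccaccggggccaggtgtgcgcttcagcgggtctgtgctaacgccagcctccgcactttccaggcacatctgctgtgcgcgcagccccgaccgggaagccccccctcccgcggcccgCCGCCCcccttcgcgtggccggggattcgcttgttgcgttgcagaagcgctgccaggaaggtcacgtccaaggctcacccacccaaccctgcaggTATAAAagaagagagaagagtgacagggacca
Oprd1, chr5:149625000-149625249, minus strand: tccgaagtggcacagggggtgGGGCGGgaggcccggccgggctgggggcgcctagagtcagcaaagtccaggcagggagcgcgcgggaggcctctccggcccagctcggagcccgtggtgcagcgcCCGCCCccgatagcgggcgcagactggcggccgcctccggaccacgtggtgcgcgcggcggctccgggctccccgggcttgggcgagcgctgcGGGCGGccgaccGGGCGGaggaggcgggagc
The Pdyn window held TATAAA 13 to 8 bases before its start and a CCAAT match on the other strand 87 to 83 bases before it. The Pomc window held TATAAA 32 to 27 bases before its start and 1 GGGCGG match on the other strand. The Oprd1 window had 4 GGGCGG matches and no TATAAA, and its GC content of 79.6% was above the 59.2% of Pdyn and the 66.4% of Pomc. Both windows of Oprm1, at chr1:45585733-45585982 and chr1:45565121-45565370, held 0 matches. Among 33469 rat windows of this length, 12.9% held the TATA box letters, 34% the CCAAT box, 30.5% the GC box, 6.34% the AP-1 site, 18.2% the half-site and 1.59% the full cAMP response element. A match is a run of letters and does not show that a factor binds there.

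The nociceptin receptor gene Oprl1 was the most abundant member, and Pdyn was the least abundant. Mean levels over the 9 libraries were 16.8 FPKM for Oprl1, 2.68 for Oprm1, 2.59 for Oprk1, 2.25 for Penk, 1.68 for Pomc, 1.11 for Pnoc, 0.896 for Oprd1 and 0.366 for Pdyn. Among the 17187 genes tested, Oprl1 lay at the 70.2 percentile of mean level and the other 7 members lay between the 9.86 and the 31.1 percentile. Oprl1 was above Oprm1 in 9 of 9 libraries and 6.26 times as high in the mean, and their ranges did not overlap. Oprm1 was above Oprk1 in 3 of 9 libraries only, and the order of these neighbours did not hold beyond their spread. The ranges of every other pair of neighbours in this order overlapped too, although Oprd1 was above Pdyn in 9 of 9 libraries. Of the summed FPKM of the 4 receptor genes, Oprl1 took between 61.5 and 79.2% in a library and Oprm1 between 6.41 and 21.9%.

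**Figure D1:**
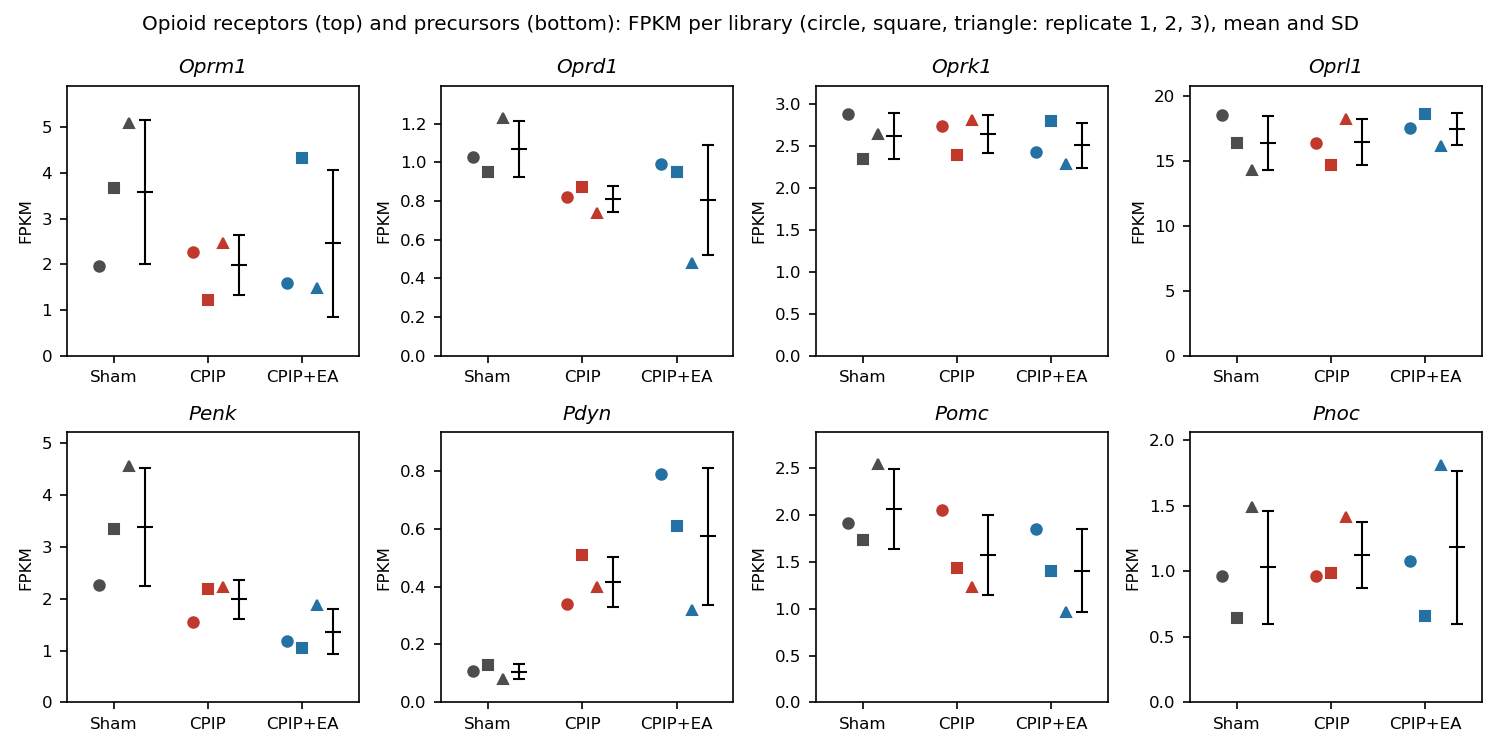
FPKM (y axis, from 0, own scale per gene) of the 8 opioid genes in each library, grouped as Sham, CPIP and CPIP+EA on the x axis. Circles, squares and triangles are replicates 1, 2 and 3, and the black bar is the mean with its SD (n = 3). Pdyn has all Sham points at or under 0.13 FPKM and all others at or above 0.32, while Oprk1 and Oprl1 have similar ranges in the 3 groups.

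The first comparison asked whether CPIP was accompanied by different levels of opioid genes in the ganglia. With limma on log2(FPKM + 0.5), 0 of the 8 members passed the threshold for a differentially expressed gene (DEG), set at an adjusted p (Benjamini-Hochberg) below 0.01 together with a change of 1.5-fold or more in either direction. Of all genes tested, 61 (0.355%) passed. Unadjusted limma p-values under 0.05 were reached by 2 members, Pdyn and Penk (25%), and by 8.66% of all genes. The count of members was 3 without Sham replicate 1, which added Oprm1, and 1 without Sham replicate 2, Sham replicate 3 or CPIP replicate 1. The CPIP and Sham libraries did not overlap for 3 members, Pdyn, Penk and Oprd1 (37.5%), and for 15.9% of all genes. The median log2 fold change was -0.13 over the members and -0.01 over all genes.

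Pdyn, the dynorphin precursor gene, had the largest ratio of mean FPKM between CPIP and Sham, while Oprm1 and Penk differed by more on the log2(FPKM + 0.5) scale. Its FPKM was 0.11, 0.13 and 0.08 in the 3 Sham libraries, 0.34, 0.51 and 0.4 in CPIP, with 0.79, 0.61 and 0.32 in CPIP+EA. Every CPIP and CPIP+EA library was above every Sham library, and CPIP and CPIP+EA overlapped. The mean of 0.417 ± 0.0862 FPKM (SD, n = 3) in CPIP was 3.91 times that of 0.107 ± 0.0252 in Sham. On the log2(FPKM + 0.5) scale, which understates changes at so low a level, the difference was 0.59 (SE 0.17, limma adjusted p = 0.254). It was 1.32 with a pseudocount of 0.1, 0.35 with a pseudocount of 1 and 0.93 on the TPM scale. The adjusted p ranged from 0.0867 to 0.575 over the 19 alternative fits that tested Pdyn.

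Penk, the enkephalin precursor gene, went the other way. Its FPKM was 2.26, 3.34 and 4.55 in Sham, 1.56, 2.18 and 2.22 in CPIP, with 1.18, 1.05 and 1.87 in CPIP+EA. Every library of both CPIP groups was below the lowest Sham library, by a small margin for CPIP replicates 2 and 3. The CPIP mean of 1.99 ± 0.370 FPKM (SD, n = 3) was 0.587 times the Sham mean of 3.38 ± 1.15. The log2 difference of -0.61 (SE 0.24) had a limma adjusted p of 0.509, which ranged from 0.282 to 0.846 over 20 alternative fits. Without Sham replicate 3, the highest library, the log2 difference was -0.40 (limma adjusted p = 0.786).

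Pomc and Pnoc overlapped between the groups. Pomc, which also encodes other hormones of the pituitary, had 1.92, 1.73 and 2.54 FPKM in Sham and 2.05, 1.43 and 1.23 in CPIP, a log2 difference of -0.32 (limma adjusted p = 0.806). Without 1 library it lay between -0.48 (CPIP replicate 1 left out) and -0.19 (Sham replicate 3 left out), and it was -0.20 without CPIP replicate 3. In Sham the 3 pituitary marker genes in the table summed to 0.65 to 0.83 FPKM. Their sums were 0.87 to 1.24 in CPIP and 1.24 to 1.27 in CPIP+EA. Most of each sum was Tbx19, at 0.65 to 0.78 FPKM in Sham, 0.64 to 0.92 in CPIP and 1.04 to 1.19 in CPIP+EA. Gh1 and Pou1f1 were at most 0.3 and 0.05 in any library, and mean Gh1 was 0.227 in CPIP and 0.127 in CPIP+EA. Pnoc, the nociceptin precursor gene, had 0.96, 0.64 and 1.49 FPKM in Sham and 0.96, 0.99 and 1.41 in CPIP, a log2 difference of 0.11. This Pnoc difference was -0.084 without Sham replicate 2 and 0.32 without Sham replicate 3.

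Within each library, Pdyn took a larger share of the precursor transcripts in CPIP than in Sham. Of the summed FPKM of Penk, Pdyn, Pomc and Pnoc, Pdyn took 2.10, 2.23 and 0.924% in the Sham libraries and 6.92, 9.98 and 7.60% in CPIP. In CPIP+EA it took 16.1, 16.4 and 6.44%, so CPIP+EA replicate 3 lay below all 3 CPIP libraries. Penk took 43.0, 57.2 and 52.5% in Sham, 31.8, 42.7 and 42.2% in CPIP, with 24.1, 28.2 and 37.6% in CPIP+EA. Penk was 20.5, 25.7 and 56.9 times as abundant as Pdyn in Sham, 4.59, 4.27 and 5.55 times in CPIP, with values of 1.49, 1.72 and 5.84 in CPIP+EA. Penk thus stayed above Pdyn in all 9 libraries. This ratio was chosen after its values were seen and was not tested.

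**Figure D2:**
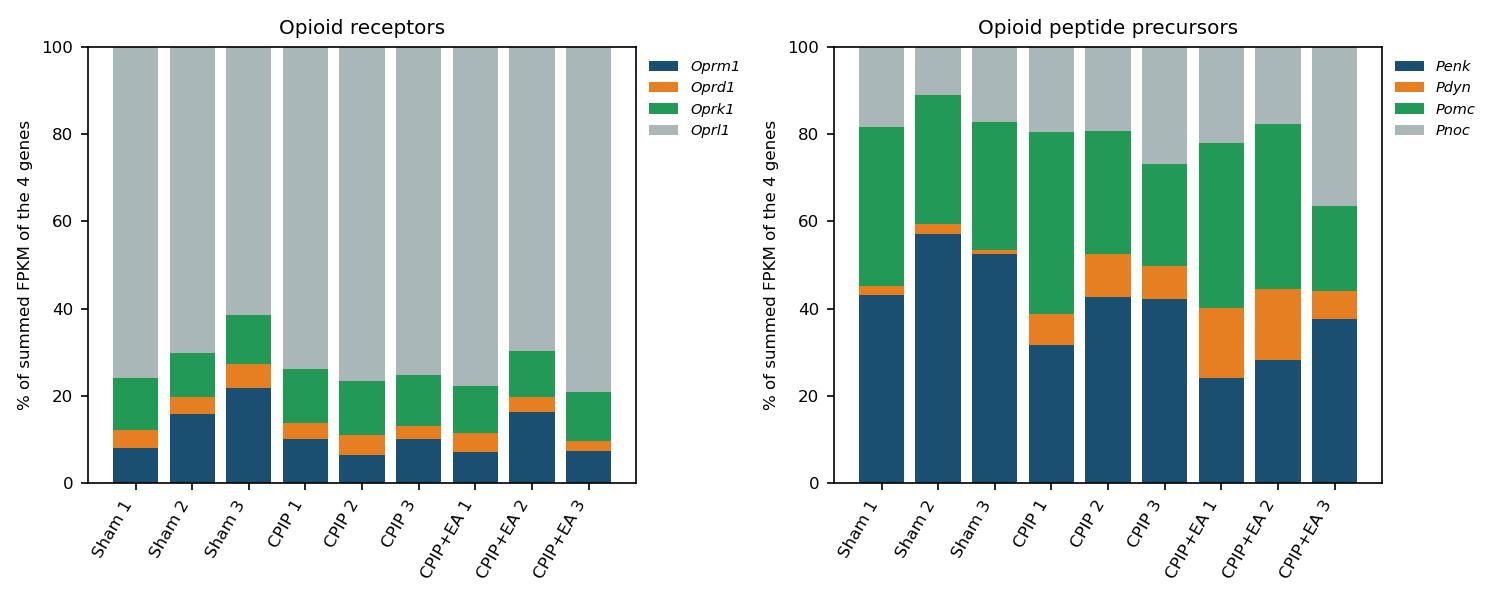
Share of the summed FPKM (y axis, percent) that each of the 4 receptor genes (left) and each of the 4 precursor genes (right) took in each of the 9 libraries (x axis). Oprl1 takes at least 61.5% of the receptor transcripts in every library, and the orange Pdyn segment is at most 2.23% in Sham and at least 6.44% in the other libraries.

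Of the receptors, the delta receptor gene Oprd1 was lower in every CPIP library than in any Sham library. Its FPKM was 1.03, 0.95 and 1.23 in Sham, 0.82, 0.87 and 0.74 in CPIP, with 0.99, 0.95 and 0.48 in CPIP+EA. The groups of Sham and CPIP were separated by less than the spread within Sham. The log2 difference of -0.26 (SE 0.17) did not pass (limma adjusted p = 0.796).

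The mu receptor gene Oprm1, whose product is the main target of morphine, varied most between replicates. Its FPKM was 1.96, 3.68 and 5.1 in Sham, 2.27, 1.23 and 2.46 in CPIP, with 1.59, 4.32 and 1.49 in CPIP+EA. All 3 groups overlapped, and the highest library was 4.15 times the lowest. Its within-group SD of 0.59 on the log2 scale was larger than that of 94.1% of 1800 genes of like level, whose median was 0.18. The difference between CPIP and Sham was -0.67 (SE 0.40, limma adjusted p = 0.759), with a 95% interval from -1.59 to 0.24. It was -0.999 without Sham replicate 1, -0.41 without Sham replicate 3 and -0.43 without CPIP replicate 2, with limma adjusted p-values up to 0.968 over the alternative fits.

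The kappa and nociceptin receptor genes differed little. Oprk1, whose product binds dynorphins, had 2.88, 2.34 and 2.64 FPKM in Sham and 2.74, 2.39 and 2.81 in CPIP and its highest library was only 1.26 times its lowest. Its log2 difference was 0.01, with a 95% limma interval from -0.25 to 0.27. Oprl1 had 18.52, 16.37 and 14.3 FPKM in Sham and 16.42, 14.71 and 18.24 in CPIP, with a log2 difference of 0.01 and an interval from -0.24 to 0.25. For both genes, a fold change of 1.5 lies outside the interval.

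The second comparison asked what EA was accompanied by in CPIP rats. With limma, 0 of the 8 members passed the DEG threshold between CPIP+EA and CPIP, as did 0 genes of all tested (0%). At an unadjusted p under 0.05 there were 0 members and 738 genes (4.29%). Without CPIP+EA replicate 3 there were 2 members at that p, Pdyn and Penk. The libraries overlapped for all 8 members, and did not overlap for 8.23% of all genes. The median log2 fold change was -0.01 over the members and 0.01 over all genes. The CPIP libraries serve both this comparison and the first.

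Pdyn and Penk had the differences of smallest p between CPIP+EA and CPIP among the members. Pdyn was 0.573 ± 0.237 FPKM (SD, n = 3) in CPIP+EA, 1.38 times its CPIP mean, with a log2 difference of 0.21 and a 95% limma interval from -0.18 to 0.59. CPIP+EA replicate 3 was the lowest of all CPIP and CPIP+EA libraries in Pdyn. Without it the difference was 0.39 (limma adjusted p = 0.672), and without CPIP+EA replicate 1 it was 0.06. Penk was 1.37 ± 0.441 FPKM in CPIP+EA, with a log2 difference of -0.43, an interval from -0.98 to 0.12 and a limma adjusted p of 0.996. Without CPIP+EA replicate 3 it was -0.61 (limma adjusted p = 0.683).

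The receptors showed no difference beyond the replicate spread here. CPIP+EA replicate 2 had 4.32 FPKM of Oprm1 and the other CPIP+EA libraries 1.59 and 1.49, and the log2 difference of 0.17 had an interval from -0.75 to 1.08. A 1.5-fold change of Oprm1 in either direction lay inside this interval. The log2 difference of Oprd1 was -0.03, with an interval from -0.41 to 0.36. Without CPIP+EA replicate 3 the difference was 0.39 for Oprm1 and 0.17 for Oprd1, and without CPIP+EA replicate 2 that of Oprm1 was -0.25. It was -0.08 without CPIP replicate 2. Oprk1 had 2.43, 2.8 and 2.29 FPKM and Oprl1 17.57, 18.61 and 16.19 FPKM in CPIP+EA. Their intervals, from -0.33 to 0.19 and from -0.16 to 0.33, excluded a 1.5-fold change. Pomc, with 1.85, 1.4 and 0.97 FPKM, and Pnoc, with 1.08, 0.66 and 1.81 FPKM, overlapped with CPIP. Their differences were -0.13 and 0.01, and 0.049 and -0.25 without CPIP+EA replicate 3. That of Pnoc was 0.25 without CPIP+EA replicate 2 and that of Pomc 0.035 without CPIP replicate 1.

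The third comparison set CPIP+EA against Sham, and shares the Sham libraries with the first. Again 0 of the 8 members passed the DEG threshold with limma, and 83 genes of all tested did (0.483%). At an unadjusted p under 0.05 there were 2 members, Pdyn and Penk, and 2100 genes (12.2%). The same 2 members did not overlap between the groups (25%), nor did 16.2% of all genes. The median log2 fold change was -0.17 over the members and 0.00 over all genes.

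Pdyn was 5.38 times as high in CPIP+EA as in Sham in the mean. Its log2 difference was 0.80 (SE 0.17, limma adjusted p = 0.0633), beside 0.59 for CPIP against Sham. It was 1.64 with a pseudocount of 0.1 (limma adjusted p = 0.0392), 0.50 with a pseudocount of 1 and 1.19 on the TPM scale. Without CPIP+EA replicate 3 it was 0.98 (limma adjusted p = 0.0141), and over the 19 alternative fits the adjusted p ranged up to 0.199. Penk was 2.48 times as high in Sham as in CPIP+EA. Its log2 difference was -1.04 (SE 0.24, limma adjusted p = 0.0896), beside -0.61 for CPIP against Sham. Without CPIP+EA replicate 3 it was -1.22 (limma adjusted p = 0.0515). The other 6 members had adjusted p-values of 0.451 or more, with log2 differences of -0.51 for Oprm1, -0.44 for Pomc, -0.29 for Oprd1, -0.05 for Oprk1, 0.09 for Oprl1 and 0.12 for Pnoc. Without CPIP+EA replicate 3 the differences were -0.28 for Oprm1, -0.27 for Pomc, -0.09 for Oprd1, 0.14 for Oprl1 and -0.14 for Pnoc. That of Oprm1 lay between -0.92 (without CPIP+EA replicate 2, limma adjusted p = 0.412) and -0.24 (without Sham replicate 3), and leaving out Sham replicate 1 gave -0.83 while leaving out CPIP+EA replicate 1 gave -0.32. That of Pomc was -0.60 without CPIP+EA replicate 1 (limma adjusted p = 0.275). The count of members at an unadjusted p under 0.05 was 3 without CPIP+EA replicate 1 or without CPIP+EA replicate 2.

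**Figure D3:**
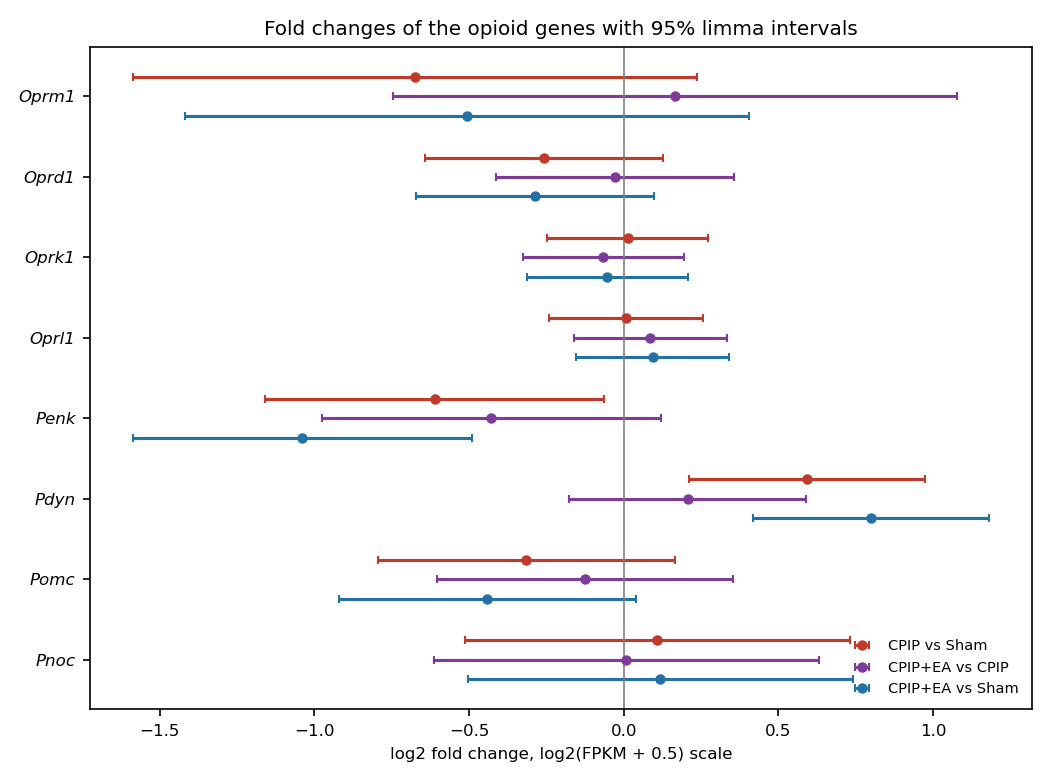
Log2 fold changes (x axis, log2(FPKM + 0.5) scale) of the 8 opioid genes in the 3 comparisons, as points with 95% limma intervals that are not adjusted for the number of genes. The intervals of Pdyn and Penk lie off 0 in both comparisons with Sham, which share the Sham libraries, and span 0 between CPIP+EA and CPIP.

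The genes that act around the opioid receptors and peptides were taken as 6 lists with 66 genes tested. Between CPIP and Sham 1 of them passed the DEG threshold, in the higher direction, and at an unadjusted limma p under 0.05 the lists had 7 higher and 4 lower. Between CPIP+EA and CPIP 0 passed and 0 reached that p. Between CPIP+EA and Sham 1 passed, again higher, and 8 were higher and 7 lower at that p. The percentages of all genes given above for the same comparisons are the background to these counts.

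The gene that passed was Cckbr, the receptor of cholecystokinin and gastrin, in the list of 10 atypical opioid-binding receptors and anti-opioid peptide systems. Its FPKM was 0.39, 0.08 and 0.37 in Sham, 2.57, 3.51 and 3.58 in CPIP, with 3.0, 3.61 and 1.79 in CPIP+EA. All libraries of both CPIP groups were far above Sham, and CPIP+EA overlapped with CPIP. It rose by 2.27 (log2, SE 0.25, limma adjusted p = 0.00323) between Sham and CPIP, and by 2.07 (adjusted p = 0.00443) between Sham and CPIP+EA. This scale understates the change of a gene so low in Sham, and the mean FPKM of CPIP was 11.5 times that of Sham. With pseudocounts of 0.1 and 1 the differences were 3.25 and 1.72 for CPIP, and 3.01 and 1.55 for CPIP+EA. The call was kept in 14 of 20 alternative fits for CPIP and 12 of 20 for CPIP+EA, and the highest adjusted p was 0.0243 and 0.0298. Without Sham replicate 2, for example, the adjusted p was 0.0138 and 0.0182. Leaving out Sham replicate 1 or 3 or CPIP replicate 2 also ended both calls, with adjusted p-values between 0.0116 and 0.0223. Leaving out CPIP replicate 3 ended the first, with an adjusted p of 0.0214, and leaving out CPIP+EA replicate 1 or 2 ended the second, with 0.0226 and 0.0211.

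In the same list, Cck and Mrgprx1 are given because their values stood out once seen. Cck, the cholecystokinin gene, whose peptide opposes opioid analgesia, had 0.89, 0.33 and 0.55 FPKM in Sham, 1.52, 1.18 and 1.53 in CPIP, with 1.16, 2.06 and 1.72 in CPIP+EA. Mrgprx1, a receptor of sensory neurons that responds to a peptide cut from proenkephalin, had 20.49, 18.08 and 13.65 FPKM in Sham, 11.18, 8.64 and 10.2 in CPIP, with 9.71, 9.77 and 6.46 in CPIP+EA. Neither gene overlapped between Sham and the other groups. The log2 differences against Sham were 0.84 and 0.99 for Cck (limma adjusted p = 0.194 and 0.0747) and -0.76 and -0.97 for Mrgprx1 (adjusted p = 0.164 and 0.0452), for CPIP and CPIP+EA in turn, and none passed the DEG threshold.

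**Figure D4:**
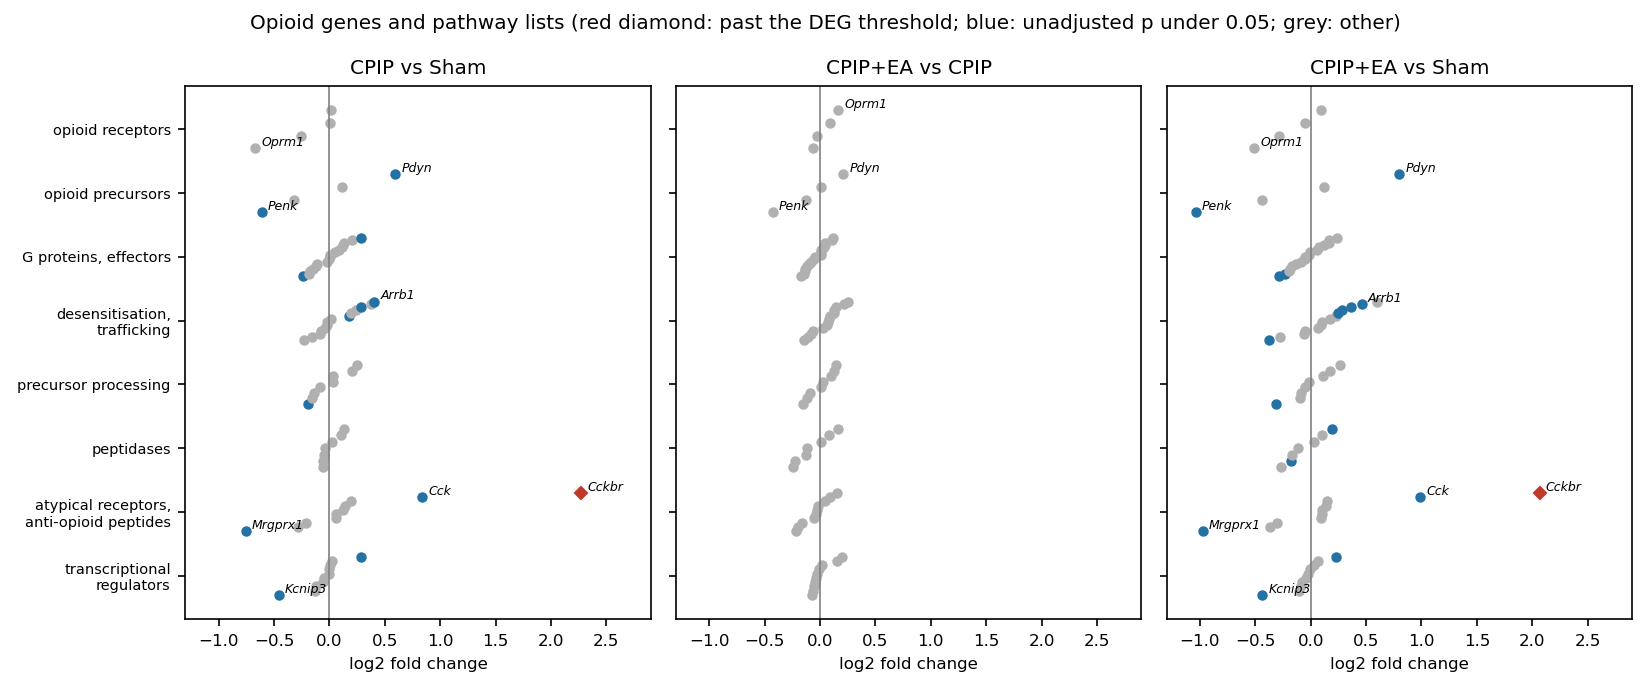
Log2 fold changes (x axis) of the opioid genes and of the genes of the 6 pathway lists (y axis, 1 point per gene, ordered by value within a list) in the 3 comparisons. Cckbr is the only red diamond (past the DEG threshold), in both comparisons with Sham, and the middle panel has no blue point (unadjusted p under 0.05).

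Transcriptional regulators of opioid genes had 0 of 10 genes past the threshold in any comparison. Kcnip3 encodes DREAM, a calcium-sensing protein known as a repressor of the Pdyn gene. Its FPKM was 67.37, 58.09 and 64.39 in Sham, 45.91, 48.25 and 43.51 in CPIP, with 50.96, 50.34 and 38.98 in CPIP+EA, all below Sham. The log2 differences were -0.46 for CPIP (limma adjusted p = 0.125) and -0.44 for CPIP+EA (adjusted p = 0.102). Crem, a gene of cyclic AMP-responsive factors, was at 6.96 to 7.13 FPKM in Sham and at 7.45 to 9.39 in the other libraries, with a difference of 0.29 for CPIP (adjusted p = 0.393).

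Of the 14 genes of desensitisation and trafficking 0 passed. Arrb1, encoding β-arrestin 1, which binds phosphorylated receptors, had 51.19, 45.16 and 45.36 FPKM in Sham, 60.66, 60.71 and 66.15 in CPIP, with 71.79, 69.25 and 55.58 in CPIP+EA. All CPIP and CPIP+EA libraries were above Sham, with log2 differences of 0.40 (limma adjusted p = 0.163) and 0.46 (adjusted p = 0.0674). Rgs4, which speeds the return of G proteins to rest, was at 380 to 387 FPKM in Sham and 244 to 347 in the other libraries, and its difference for CPIP+EA was -0.38 (adjusted p = 0.213), and -0.24 without CPIP+EA replicate 3 (adjusted p = 0.221).

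The 3 remaining lists also had 0 genes past the threshold. Of 17 G proteins and effectors, Kcnj3, a potassium channel subunit opened by receptors of this class, differed by -0.24 between CPIP and Sham (limma adjusted p = 0.509) and Adcy8, an adenylyl cyclase, by 0.28 (adjusted p = 0.535). These were -0.14 without Sham replicate 1 and 0.18 without Sham replicate 3, in turn. Of 8 genes of precursor processing, Scg5, a helper of the convertase PC2, had 152.26, 163.34 and 166.88 FPKM in Sham and 145.16, 141.54 and 134.35 in CPIP, a difference of -0.20 (adjusted p = 0.278). Qpct differed by -0.31 between CPIP+EA and Sham (adjusted p = 0.370). Of 7 peptidases that degrade opioid peptides, Dpp3, a cytosolic peptidase, differed by 0.19 (adjusted p = 0.368) and Ece1, an endothelin-converting enzyme, by -0.18 (adjusted p = 0.388) between CPIP+EA and Sham. The Ece1 difference was -0.11 without CPIP+EA replicate 2.

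**Figure D5:**
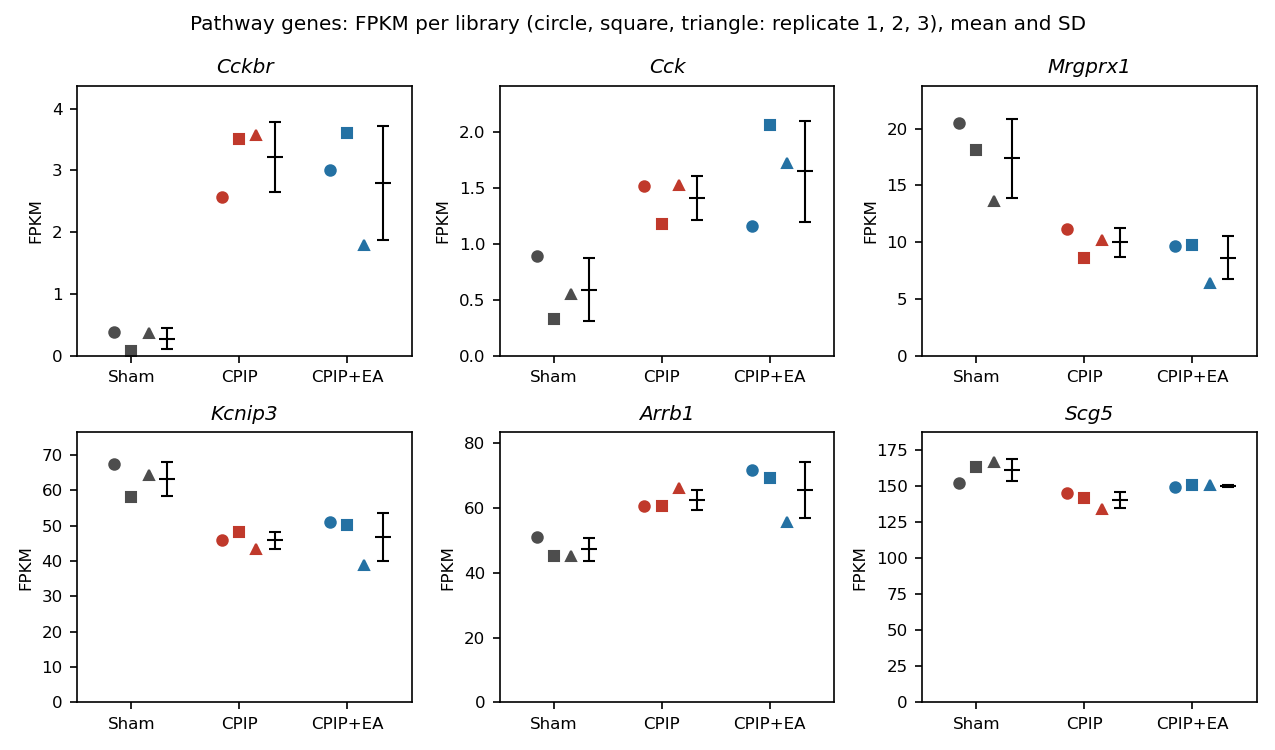
FPKM (y axis, from 0, own scale per gene) of 6 pathway genes in each library, by group on the x axis. Circles, squares and triangles are replicates 1, 2 and 3, and the black bar is the mean with its SD (n = 3). Cckbr is at most 0.39 FPKM in Sham and at least 1.79 in the other libraries, and Mrgprx1 and Kcnip3 are higher in every Sham library than in any other.

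Genes whose pattern over the 9 libraries was most like that of a member were found by the Pearson r of log2(FPKM + 0.5), among genes whose mean FPKM reached 1. For Pdyn these were P2rx2, an ATP-gated channel gene (r = 0.971), Tuba1a, a tubulin gene (r = 0.970), and Srxn1 (r = 0.966). For Penk they were Phldb2 (r = 0.974), Nr1d1, a circadian repressor gene (r = 0.953), and Tmem60 (r = 0.939). For Oprm1 they were Vcpip1 (r = 0.975), Eif4h and Eea1 (both r = 0.964). Among the other members, the first-ranked gene was Tdrp for Oprd1 (r = 0.974), Gnb1l for Oprk1 (r = 0.970), Gga2 for Oprl1 (r = 0.962) and Oma1 for Pnoc (r = 0.962). Such values were common in these data. Over 13914 genes the highest r with any other gene had a median of 0.959, and the points share libraries and group differences.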

How the data were processed

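The 9 poly(A) libraries of ipsilateral L4–6 DRGs, 3 per group by the labels and from 3 rats per group by the study's methods, were sequenced with single-end reads. The authors filtered reads with SOAPnuke and deposited, for each gene in each library, an FPKM value rounded to 2 decimals. The aligner, genome build, annotation and quantifier are not given in the sources used here. The 9 further columns hold log2 ratios between groups with their P-values and Q-values, which the authors computed, and were not used. Low FPKM values were not whole multiples of a common step (31.3% of 753 values within 0.1), so read counts were not recovered and no count test was run.

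log2(FPKM + 0.5) was fitted in R 4.3.3 with the limma package 3.58.1, using lmFit, contrasts.fit and a trended eBayes, over all 9 libraries, without covariates. Genes needed a mean FPKM of at least 0.1, which left 17187 genes, all 8 opioid genes included. Tests were two-sided, with Benjamini-Hochberg adjustment over all genes tested. The fit was also run on simulated data, with changes set only in genes of higher mean log2 level than Pdyn. Its outcome is not reported here. Replicate numbers were not treated as pairs in the main fit. Tables and figures were made with Python 3.11.15, pandas 2.3.3, numpy 2.4.6 and matplotlib 3.10.9.

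Named were the 8 opioid genes and, per pathway list, its DEGs or else the 2 genes of smallest unadjusted p. The 3 genes most like each opioid gene over the libraries were found too, and those of Pomc are not reported here. The opioid genes, lists and tests were chosen with earlier results of these data known. Alternatives changed the pseudocount to 0.1 or 1 and the minimum mean to none or 1 FPKM. Others were quantile, TPM and median scaling, no trend or a robust trend, a replicate block, only the groups compared, a looser threshold, and each of the 9 libraries left out. For the pathway genes the alternatives were added after seeing the data.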

Additional observations from a re-analysis of the deposited data

How the results depend on the processing

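The count of opioid genes past the DEG threshold was 0 under all 21 alternatives in each of the 3 comparisons. The count over all genes moved more. From 61 it ranged from 26 (replicate block) to 122 (adjusted p under 0.05, no minimum fold) between CPIP and Sham. It was 30 without Sham replicate 2 or CPIP replicate 3, 34 without Sham replicate 1 or CPIP replicate 2, and 38 without Sham replicate 3. From 83 it ranged between CPIP+EA and Sham from 35 (without CPIP+EA replicate 2) to 226 (looser threshold), with 42 under the replicate block, 46 with only the groups compared, 50, 47 and 48 without Sham replicates 1, 2 and 3, and 54 without CPIP replicate 2. Between CPIP+EA and CPIP it was 0 to 2, with 2 without CPIP+EA replicate 1. Same-numbered libraries deviated together with r between -0.236 and 0.297, and other pairs from different groups with r between -0.223 and 0.280. Of 9 libraries, 2 correlated best with their own number. With 3 libraries per group, these values cannot settle whether same-numbered libraries share more than a number. Under the replicate block the adjusted p of Penk between CPIP+EA and Sham was 0.0443, its unadjusted p against CPIP was 0.0315 (adjusted p = 0.995), the only opioid gene under 0.05 there, and Cckbr lost both calls (adjusted p = 0.0243 and 0.0298). With only the groups compared, Cckbr lost its call between CPIP+EA and Sham (adjusted p = 0.0263). The mean FPKM of at least 1 left Pdyn and Oprd1 untested. Pdyn and Penk kept their direction against Sham in every alternative that tested them. The unadjusted limma p of Penk between CPIP and Sham was 0.127 without Sham replicate 3, 0.111 without CPIP replicate 1 and 0.0710 without Sham replicate 2.

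No opioid gene passed the DEG threshold, so directions could only turn in differences that did not pass. They turned in the log2 differences given next, and the cause was not tested. With 1 library left out they ranged from -0.13 to 0.17 (Oprd1), -0.25 to 0.39 (Oprm1), -0.25 to 0.25 (Pnoc) and -0.29 to 0.049 (Pomc) between CPIP+EA and CPIP. Between CPIP and Sham they ranged from -0.053 to 0.074 (Oprk1), -0.084 to 0.097 (Oprl1) and -0.084 to 0.32 (Pnoc), and between CPIP+EA and Sham from -0.12 to 0.0062 (Oprk1) and -0.14 to 0.36 (Pnoc). On the TPM scale Oprl1 was at -0.0024 between CPIP and Sham and Pnoc at -0.017 between CPIP+EA and CPIP. Pnoc was there at -0.0088 with a pseudocount of 0.1 and at -0.0048 with quantile normalization.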
